A study of Mus musculus with 6 samples.

Results

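The 40 genes described here encode the contractile machinery of smooth muscle and the cytoskeleton that holds it: actins, myosins, the enzymes that phosphorylate and dephosphorylate myosin, proteins of the thin filament, intermediate filaments, proteins of dense bodies and adhesions, LIM-domain proteins and the transcription regulators of the group. They were taken by symbol from a fixed list of names that was chosen with earlier results of these data known. All 40 were found among the 54232 genes of the count table. All 40 also passed the filter on low counts, which left 15376 genes for testing.

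The libraries were made from primary muscle cells of mouse oviducts, collected on day 2 of pregnancy (D2) from females of 8 to 12 weeks. There were 3 libraries of genotype WT and 3 of Pbrm1 cKO, in which *Pbrm1*, the polybromo subunit of the PBAF form of the SWI/SNF chromatin remodeling complex, was deleted by a Cre recombinase expressed from the progesterone receptor gene (*PR-IRES-cre*), so that deletion was limited to cells that express the receptor. The comparison asks which genes differ in expression between the 2 genotypes in cells labelled as oviductal muscle. Oviducts were minced and digested, and the cells were kept in dishes with serum for 4 hours and, after a change of medium, for 2 more before RNA was prepared, so that the values describe cells taken out of the tissue. The labels call the controls WT, while a legend of the study names floxed mice without Cre. The same legend calls the replicates biological. No label states if the RNA of 1 library was from a single animal or from several. The p-values measure the spread between libraries, in which a technical part was not separated.

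Smooth muscle shortens when myosin filaments pull on actin filaments. Myosin is switched on by phosphorylation of its regulatory light chain by a calcium- and calmodulin-dependent kinase, and switched off by a phosphatase. The thin filaments are anchored in dense bodies and in adhesion plaques at the membrane, and an intermediate filament network links these anchors. Many of the genes are activated by serum response factor (SRF) together with its coactivator myocardin through a DNA element named the CArG box, and in the oviduct the muscle layer helps to move the embryo toward the uterus.

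CArG boxes were looked for, on both strands, in the 250 bases before each start site of the RefSeq promoter table (GRCm38.p6). The 4 promoters below belong to members called between the genotypes. Those of *Myl9*, *Srf* and *Ldb3* hold a full box and that of *Acta2* holds near matches, with capitals marking the box or match. Whether these sites control the genes here was not tested.
Myl9, chr2:156775248-156775367, + strand: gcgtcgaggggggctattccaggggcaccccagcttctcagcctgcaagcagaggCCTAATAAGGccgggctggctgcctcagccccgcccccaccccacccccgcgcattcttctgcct
Srf, chr17:46556180-46556299, - strand: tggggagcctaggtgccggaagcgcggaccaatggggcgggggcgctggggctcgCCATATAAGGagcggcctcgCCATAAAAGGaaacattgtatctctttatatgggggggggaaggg
Ldb3, chr14:34588683-34588802, - strand: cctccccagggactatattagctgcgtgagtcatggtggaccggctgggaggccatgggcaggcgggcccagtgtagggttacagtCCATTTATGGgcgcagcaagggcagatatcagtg
Acta2 distal, chr19:34255438-34255467, - strand: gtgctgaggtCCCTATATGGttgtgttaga
Acta2 proximal, chr19:34255388-34255417, - strand: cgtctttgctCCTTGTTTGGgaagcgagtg
The box of *Myl9* began at position -161 relative to the start site, the pair of boxes of *Srf* began at -82 and -62, and that of *Ldb3* at -109 from one of its start sites and at -35 from the other. Those of *Acta2*, at -84 and -34, each depart from the box by 1 letter of its core. They were found only when this 1 departure was allowed, a search added after the data had been seen, and both printed stretches overlap an annotated exon. That search also found sites, not printed here, for the called members *Flnc*, *Hspb6* and *Pdlim3*, and a further site for *Myl9*.

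A full CArG box was present for 7 of the 35 members with a promoter entry (20.0%). It was present for 439 of all 27025 genes of the promoter table (1.62%), whether tested here or not. Of 58 other contractile genes, listed further below, 43 had an entry and 3 of these held a full box (6.98%). The 7 were *Myl9*, *Ldb3*, *Srf*, *Cnn2*, *Myl6*, *Vcl* and *Fhl1*. No entry was matched for 5 members, among them *Actg2*, *Myh11*, *Myocd* and *Tagln*. By call, boxes were held by 2 of 15 members that were higher in cKO (13.3%), 1 of 6 that were lower (16.7%) and 4 of 14 that were not called (28.6%). With 1 departure in the core allowed, a match was held by 12 of 35 members (34.3%) and 11 of the 43 other contractile genes (25.6%). For all genes of the promoter table the share was 9.78%.

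Libraries held between 15390818 and 18947947 counts, and levels are given as CPM, which are counts brought to 1 library size for all samples with TMM factors. *Pbrm1* itself stood at 170.1, 183 and 172 CPM in WT and at 43.5, 50.7 and 42.7 CPM in cKO, so that 26.0% of the WT level was left. The table counts the whole gene and does not show which exons the reads came from. *Pgr*, which carries the Cre, was at 171 to 177 CPM in WT and 159 to 184 CPM in cKO and was not called. The smooth muscle markers *Acta2*, *Tagln*, *Myh11*, *Des*, *Cnn1*, *Lmod1* and *Smtn* were all present in every library. Their presence in bulk RNA does not give the share of smooth muscle cells, so it cannot settle the labelled cell type. *Myocd*, also a listed marker, was at only 2.65 to 5.26 CPM. Markers of other cells were present too: 12 fibroblast markers summed to 5014 to 5585 CPM in WT and 7496 to 7848 CPM in cKO, 13 leukocyte markers to 688 to 739 and 1006 to 1085 CPM, and 10 epithelial markers to 958 to 1036 and 1209 to 1349 CPM. In bulk RNA, fewer cells of a type and less RNA per cell cannot be told apart.

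Of the 40 members, 17 rose and 6 fell in cKO, and 17 did not pass the test (edgeR quasi-likelihood test, Benjamini-Hochberg adjusted p under 0.05 over all tested genes). Among all 15376 tested genes, 43.7% were called, 21.9% as higher and 21.8% as lower. The members' median log2 fold change was 0.09, against 0.0016 for all tested genes, and their median absolute change was 0.23 against 0.22. Expression values of WT and cKO libraries did not overlap for 24 of the 40 members, where 53.5% of all tested genes did not overlap. Beyond an absolute log2 fold change of 0.5, 9 members were called, all of them higher in cKO, and 16.8% of all tested genes passed that limit in either direction. That share was not split by direction. The 9 were *Mylk*, *Des*, *Ppp1r12b*, *Ldb3*, *Lmod1*, *Myl9*, *Myh11*, *Pdlim3* and *Hspb6*. Of these, *Ldb3* and *Hspb6* lost the call in 5 and 4 of 14 alternative fits.

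**Figure D1:**
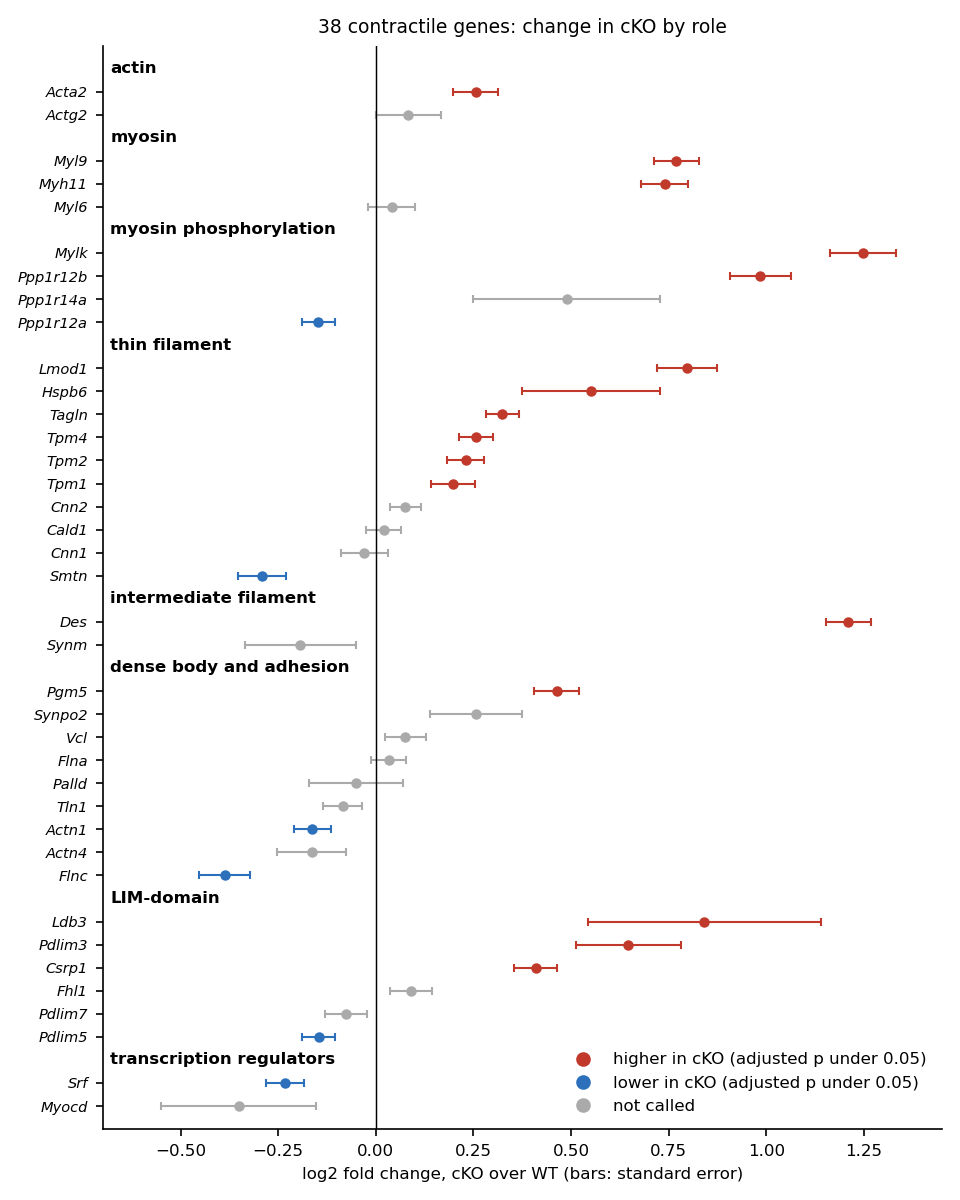
Log2 fold change of cKO over WT (x axis) for 38 of the 40 contractile genes (y axis), grouped by role, with bars for the standard error of the edgeR fit and colors for the call. The 9 genes beyond 0.5 all lie on the side of cKO, from 0.55 for Hspb6 to 1.25 for Mylk, and the 6 genes called lower lie between -0.39 for Flnc and -0.15 for Pdlim5 and Ppp1r12a.

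Together the 40 genes took 2.05% to 2.07% of all counts in the WT libraries and 2.20% to 2.33% in the cKO libraries. Levels of different genes are compared per kb of exon length. On this scale *Tagln*, *Acta2*, *Tpm4* and *Flna* were the highest in both genotypes, at 804, 722, 578 and 536 CPM per kb in WT and 1006, 862, 690.2 and 548 in cKO. At the other end, 7 members were under 2 CPM per kb in WT, from *Synpo2* at 1.85 to *Ldb3* at 0.163. *Mylk* moved from place 29 of 40 in WT to place 21 in cKO, and *Des* from place 17 to place 10. *Cnn2* and *Csrp1* stood side by side in WT at 263 CPM per kb each, and at 277 and 349 CPM per kb in cKO.

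**Figure D2:**
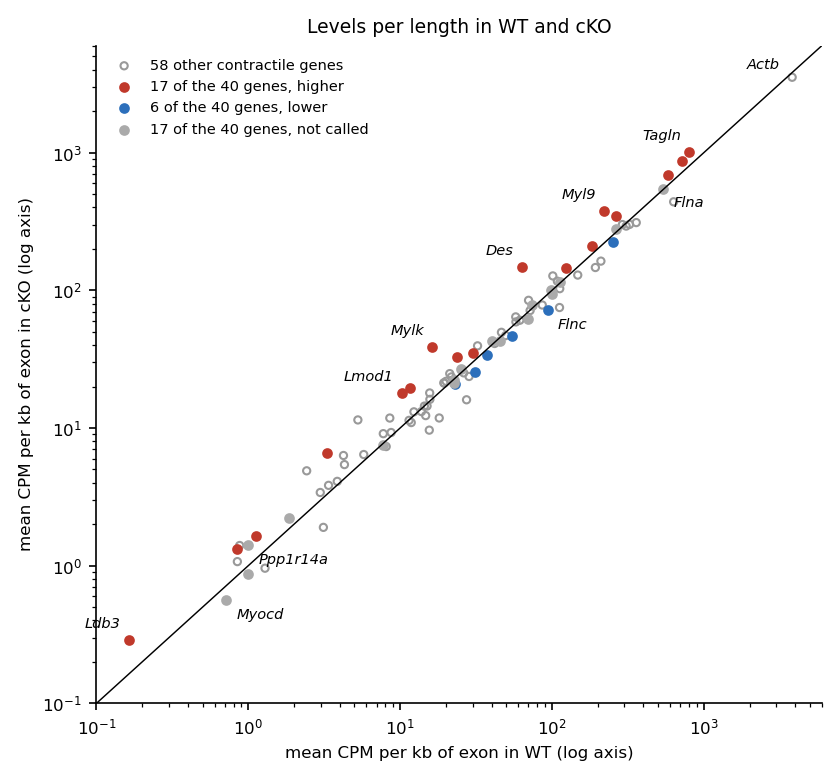
Mean CPM per kb of exon in WT (x axis, log scale) against cKO (y axis, log scale) for the 40 contractile genes, colored by call, and 58 other contractile genes (open circles), with the line of equal level. The members span from Ldb3 at 0.163 to Tagln at 804 CPM per kb in WT, and of the 40 genes Mylk and Des stand farthest above the line.

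In the actin group, *Acta2*, smooth muscle alpha-actin, rose and *Actg2*, the gamma-actin of visceral smooth muscle, did not pass the test. *Acta2* (chr19:34241090-34255336) was measured at 1249, 1312 and 1299.7 CPM in WT replicates 1, 2 and 3 and at 1587, 1387 and 1633 CPM in cKO replicates 1, 2 and 3. Every cKO library stood above every WT library, with cKO replicate 2 the nearest to WT. The log2 fold change was 0.26 ± 0.06 (SE) with an adjusted p of 0.00261 in edgeR. *Actg2* ranged from 57.3 to 66.1 CPM in WT and from 56.8 to 71.8 CPM in cKO, a log2 fold change of 0.08 ± 0.08 (edgeR adjusted p = 0.445). Without cKO replicate 2, which was the lowest of all 6 libraries for this gene, it was 0.19 with an adjusted p of 0.0193. *Actg2* was 0.0556 times as abundant as *Acta2* per kb in WT.

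The cytoplasmic actins were lower in cKO. *Actb*, the beta-actin of all cells, fell by 0.11 on the log2 scale (adjusted p = 0.0413 in edgeR) and *Actg1*, cytoplasmic gamma-actin, fell by 0.37 (adjusted p = 9.6e-05). Measured within each library per kb, the muscle actins *Acta2* and *Actg2* made up 15.3%, 16.3% and 16.2% of the 4 actins in WT and 20.3%, 18.04% and 20.7% in cKO. The share was thus 15.9% ± 0.530 (SD, n = 3) in WT and 19.7% ± 1.43 (SD, n = 3) in cKO, without overlap. *Actg1* has processed copies of up to 99.6% identity, and reads shared with them were not counted, so that its level, and with it the share, is uncertain. The exact permutation test gave p = 0.1, two-sided, which is the smallest that 3 libraries against 3 allow.

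Of the myosin genes, the heavy chain *Myh11* and the regulatory light chain *Myl9* both rose, and the essential light chain *Myl6* did not pass the test. *Myl9* (chr2:156775420-156781658), whose promoter is printed above, was at 251, 257 and 260.0 CPM in WT and at 445, 396 and 468 CPM in cKO. The lowest cKO library was 1.52 times the highest WT library, and the log2 fold change was 0.77 ± 0.06 (edgeR adjusted p = 2.29e-07). *Myh11* (chr16:14194535-14291372), the smooth muscle myosin heavy chain, was at 87.9, 89.2 and 87.4 CPM in WT and at 159, 133 and 149 CPM in cKO. The lowest cKO library was 1.49 times the highest WT library, with a log2 fold change of 0.74 ± 0.06 (edgeR adjusted p = 5.18e-07). *Myl6*, which serves smooth muscle and non-muscle myosin alike, ranged over 291 to 348 CPM in WT and 311 to 329 CPM in cKO with a change of 0.04 ± 0.06 (edgeR adjusted p = 0.618), a change whose sign depended on WT replicate 2.

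Non-muscle myosins were measured in the same libraries. *Myh9*, the heavy chain of non-muscle myosin IIA, fell by 0.40 (edgeR adjusted p = 0.000238) from 2302 to 2636 CPM in WT to 1711 to 2021 CPM in cKO, *Myh14* (IIC) fell by 0.72 (adjusted p = 5.99e-05), and *Myh10* (IIB) was not called at -0.06 ± 0.05. The share of *Myh11* in the sum of *Myh11*, *Myh9* and *Myh10*, per kb, was 5.02%, 5.24% and 5.63% in WT and 11.2%, 9.31% and 11.9% in cKO. Mean shares were 5.29% ± 0.312 and 10.8% ± 1.33 (SD, n = 3 each), a ratio of 2.04, with an exact permutation p of 0.1. Every cKO library had a higher share than every WT library. *Myh9* was the most abundant of the heavy chains per kb, at 193 CPM per kb in WT and 146 in cKO, against 11.6 and 19.4 for *Myh11*, 15.0 and 14.4 for *Myh10* and 3.12 and 1.90 for *Myh14*.

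Among regulatory light chains, *Myl9* took 62.3%, 61.2% and 62.1% of the 3 genes in WT and 73.3%, 72.4% and 75.8% in cKO, with means of 61.8% ± 0.600 and 73.9% ± 1.77 (SD, n = 3 each; exact permutation p = 0.1). The others are *Myl12a*, which was not called (0.10 ± 0.05), and *Myl12b*, which fell by 0.77 (edgeR adjusted p = 3.58e-06). Transcripts of *Myl12a* and *Myl12b* match at 96.9% over 648 bases, and reads that matched both were left out by the counting. The levels of both genes, and with them the share of *Myl9*, are therefore uncertain. *Myl6* has 4 processed copies of at least 97.4% identity and its level is uncertain in the same way.

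**Figure D3:**
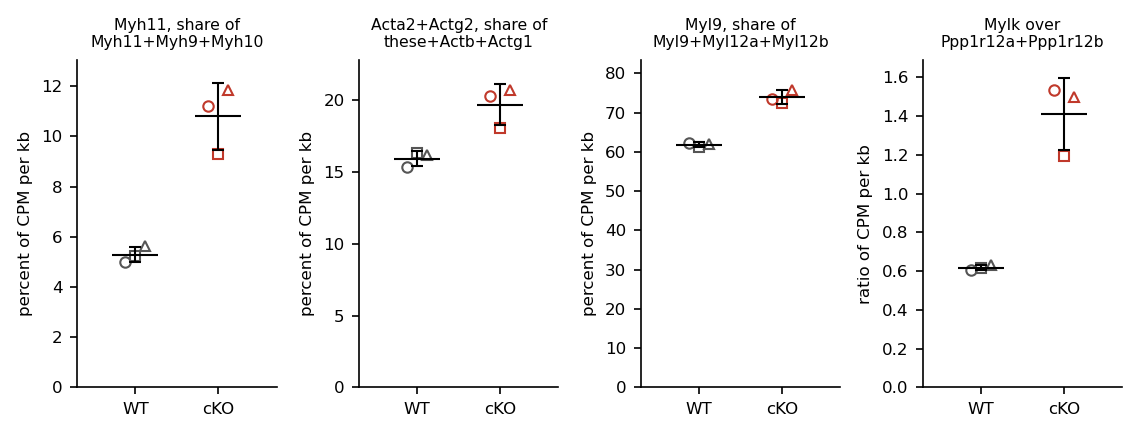
The 4 ratios of CPM per kb (y axes, from 0) measured within each library, for 3 WT and 3 cKO libraries (x axes). Points are libraries, with the marker shape giving the replicate number, and black lines give the mean with the SD. In each panel the 3 cKO libraries lie above the 3 WT libraries, and cKO replicate 2 is the lowest of the cKO libraries.

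Of the 6 genes that set myosin phosphorylation, 3 rose, 1 fell and 2 did not pass the test. *Mylk* (chr16:34745210-35002420), the kinase of the regulatory light chain, showed the largest log2 fold change of the 40 members. It was at 179, 184 and 188 CPM in WT and at 478, 359.9 and 471 CPM in cKO. The lowest cKO value was 1.91 times the highest WT value, and the log2 fold change was 1.25 ± 0.08 (edgeR adjusted p = 1.14e-07). The gene also gives rise to telokin, a short product from its last exons, and the gene count does not separate the products.

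The phosphatase that reverses this phosphorylation is brought to myosin by targeting subunits, and these moved in opposite directions. *Ppp1r12b*, which encodes the subunit known as MYPT2, ranged over 48.8 to 51.3 CPM in WT and 84.8 to 109 CPM in cKO, a rise of 0.98 ± 0.08 (edgeR adjusted p = 3.93e-07). *Ppp1r12a*, for the subunit MYPT1, was at 184, 185 and 186 CPM in WT and at 163, 169 and 169 CPM in cKO. It was lower in every cKO library, by 0.15 ± 0.04 on the log2 scale (edgeR adjusted p = 0.0113), and did not pass the test without cKO replicate 1 (adjusted p = 0.0573). Per kb, *Ppp1r12a* was the more abundant of the pair in both genotypes, at 23.1 against 3.32 CPM per kb in WT and 20.8 against 6.57 in cKO.

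The ratio of *Mylk* to the sum of *Ppp1r12a* and *Ppp1r12b* per kb was taken within each library, without *Ppp1r12c*. It was 0.605, 0.617 and 0.630 in WT and 1.54, 1.20 and 1.50 in cKO. The mean ratio was 0.617 ± 0.0128 in WT and 1.41 ± 0.187 in cKO (SD, n = 3 each), 2.28 times higher and without overlap, and the exact permutation p was 0.1.

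*Ppp1r14a*, which encodes the phosphatase inhibitor CPI-17, was at 1.11 to 1.65 CPM in WT and 1.59 to 2.14 CPM in cKO, near the bottom of the group, with a change of 0.49 ± 0.24 (edgeR adjusted p = 0.115).

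Thin filament proteins formed the largest role with 10 genes, of which 6 rose, 1 fell and 3 did not pass the test. *Lmod1*, leiomodin, which nucleates actin filaments in smooth muscle, changed most. It was at 39.6, 41.3 and 41.3 CPM in WT and at 76.8, 61.4 and 74.2 CPM in cKO, with every cKO library above every WT library and a log2 fold change of 0.80 ± 0.08 (edgeR adjusted p = 2.25e-06). *Tagln*, which encodes transgelin (SM22 alpha), the most abundant member per kb, was at 1598, 1575 and 1619 CPM in WT and at 2016, 1934 and 2051 CPM in cKO. All cKO libraries were higher than all WT libraries, by 0.32 ± 0.04 on the log2 scale (edgeR adjusted p = 4.18e-05). The small heat shock protein gene *Hspb6* rose by 0.55 ± 0.18 at a low level of 2.30 to 4.50 CPM (edgeR adjusted p = 0.022) and lost its call with DESeq2 (adjusted p = 0.0748) and when WT replicate 1, WT replicate 2 or cKO replicate 1 was left out (adjusted p of 0.0591 to 0.115).

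The 3 tropomyosin genes of the group, whose products lie along the actin filament, all rose by similar amounts: *Tpm4* by 0.26 ± 0.04, *Tpm2* by 0.23 ± 0.05 and *Tpm1* by 0.20 ± 0.06. Their WT and cKO libraries did not overlap. The call of *Tpm1* was lost without cKO replicate 1 (adjusted p = 0.0538 in edgeR), and a processed copy of *Tpm4*, *Gm7809*, held counts equal to 5.62% of those of *Tpm4*. Reads that matched both were left out by the counting, so that the level of *Tpm4* is uncertain by an amount the table does not show. *Tpm3*, which was not among the 40, rose by 0.29 ± 0.04 (edgeR adjusted p = 0.000167).

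Of the genes for calponins and caldesmon, which bind actin and restrain myosin, the 3 among the 40 were not called. *Cnn1*, smooth muscle calponin and a common marker of the contractile state, was at 63.8, 61.1 and 61.5 CPM in WT and at 63.9, 55.5 and 63.3 CPM in cKO. The groups overlapped, cKO replicate 2 was the lowest library, and the change was -0.03 ± 0.06 (edgeR adjusted p = 0.73). Leaving out each library in turn gave between -0.066 and 0.040. *Cald1* was at 1304 to 1396 CPM in WT and 1331 to 1415 CPM in cKO (log2 fold change 0.02 ± 0.04), and *Cnn2*, a calponin of many cell types, did not pass the test at 0.08 ± 0.04. *Cnn3*, another calponin gene and not among the 40, rose by 0.27 ± 0.06 (edgeR adjusted p = 0.00194) from 202 to 219.7 CPM in WT to 234 to 272 CPM in cKO. *Smtn*, which encodes smoothelin, an actin-binding protein of contractile smooth muscle, fell. It was at 139, 145 and 124 CPM in WT and at 109, 118 and 107 CPM in cKO, with all cKO libraries below all WT libraries and a log2 fold change of -0.29 ± 0.06 (edgeR adjusted p = 0.00169).

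**Figure D4:**
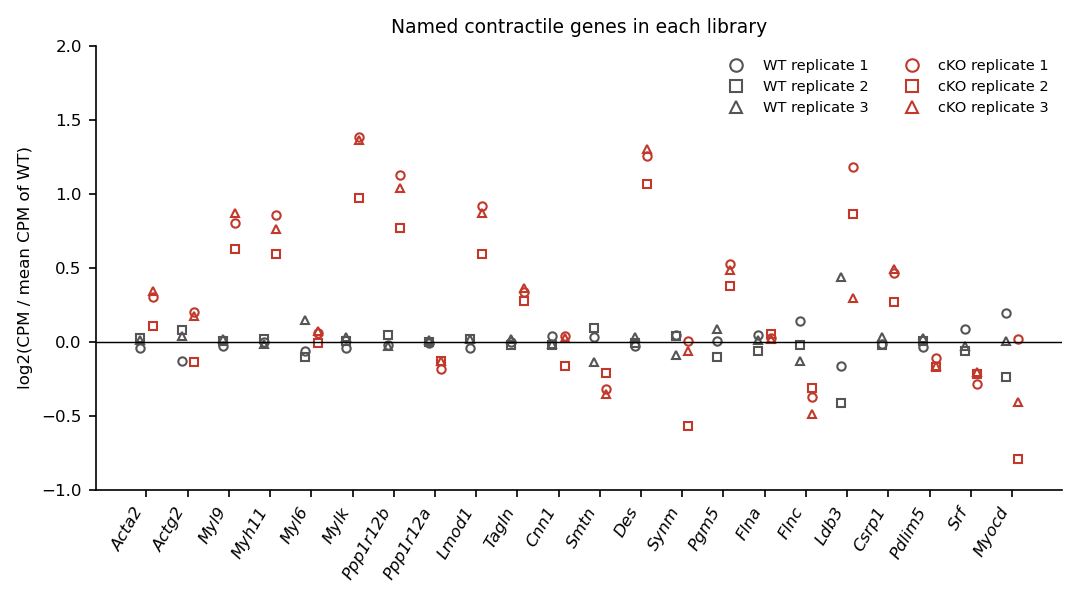
Log2 ratio of each library's CPM to the mean CPM of WT (y axis) for 22 of the 40 genes (x axis), with WT libraries in gray, cKO libraries in red and the marker shape giving the replicate number. For Mylk, Des, Ppp1r12b, Lmod1, Myl9 and Myh11 the cKO libraries stand clear above WT with replicate 2 the lowest of the 3, while Cnn1, Flna and Myl6 show both groups around 0.

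Of the intermediate filament genes, *Des* (chr1:75360329-75368579), which encodes desmin, the muscle intermediate filament protein, had the smallest adjusted p of the 40 members. It was at 235, 238 and 245 CPM in WT and at 572, 500.4 and 589 CPM in cKO. The lowest cKO library was 2.04 times the highest WT library, and the log2 fold change was 1.21 ± 0.06 (edgeR adjusted p = 3.54e-09). *Synm*, whose product synemin joins desmin filaments, was at 7.38 to 8.10 CPM in WT and 5.30 to 7.87 CPM in cKO and did not pass the test (-0.19 ± 0.14, edgeR adjusted p = 0.3). Outside the 40, *Vim*, the intermediate filament gene of mesenchymal cells, and *Nes* were lower, with log2 fold changes of -0.53 and -0.61 (edgeR adjusted p = 1.92e-06 and 0.000116). *Vim* remained higher than *Des* per kb in both genotypes, at 633 against 63.8 CPM per kb in WT and 439 against 147 in cKO.

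Of the 9 genes of dense bodies and adhesions, 1 rose, 2 fell and 6 did not pass the test. *Pgm5*, aciculin, a protein of muscle adherens junctions, was at 86.4, 80.2 and 91.2 CPM in WT and at 124, 111 and 120.1 CPM in cKO. All cKO libraries exceeded all WT libraries, by 0.46 ± 0.06 (edgeR adjusted p = 2.5e-05). *Flnc*, the muscle filamin, was at 970.4, 866 and 804 CPM in WT and at 679, 711 and 629 CPM in cKO, below WT in every cKO library with a log2 fold change of -0.39 ± 0.06 (edgeR adjusted p = 0.000307), the largest fall among the 40 members that passed the test.

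*Flna*, the widely expressed filamin and the most abundant gene of this role, was at 5205, 4834 and 5074 CPM in WT and at 5137, 5228 and 5099.7 CPM in cKO. Its groups overlapped (0.03 ± 0.04, edgeR adjusted p = 0.587). *Actn1*, the alpha-actinin of dense bodies, was at 1385, 1458 and 1346 CPM in WT and at 1282, 1265 and 1194 CPM in cKO and fell by 0.16 ± 0.05 (edgeR adjusted p = 0.0124). That call was lost without WT replicate 2 (adjusted p = 0.084) or cKO replicate 3 (adjusted p = 0.0531). Log2 fold changes of *Actn4*, *Tln1* (talin), *Palld* (palladin), *Vcl* (vinculin) and *Synpo2* were -0.16, -0.08, -0.05, 0.08 and 0.26, and none passed the test. Without cKO replicate 2, *Vcl* and *Synpo2* passed it, at 0.13 and 0.40 (edgeR adjusted p = 0.0157 and 0.0022).

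The LIM-domain genes, whose products dock on actin and alpha-actinin, divided into 3 that rose, 1 that fell and 2 not called. *Csrp1*, the most abundant, was at 509, 505 and 527 CPM in WT and at 707, 618 and 721 CPM in cKO, with no overlap and a log2 fold change of 0.41 ± 0.06 (edgeR adjusted p = 5.43e-05). *Pdlim3* rose by 0.65 ± 0.14 (edgeR adjusted p = 0.00161) from 3.98 to 4.92 CPM in WT to 6.19 to 7.21 CPM in cKO. *Pdlim5* was at 323, 332 and 336 CPM in WT and at 307, 294 and 295 CPM in cKO and fell by 0.15 ± 0.04 (edgeR adjusted p = 0.0122).

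*Ldb3*, better known from the Z-disc of striated muscle, had the largest estimate of this role and the lowest level of the 40 genes. It was at 0.886, 0.749 and 1.35 CPM in WT and at 2.25, 1.80 and 1.22 CPM in cKO. These values overlapped between the groups, since cKO replicate 3 lay below WT replicate 3, and the log2 fold change was 0.84 ± 0.30 (edgeR adjusted p = 0.0354). With DESeq2 (adjusted p = 0.0874) and without WT replicate 1, WT replicate 2, cKO replicate 1 or cKO replicate 2 (adjusted p of 0.0546 to 0.166), it did not pass. *Ldb3* lies 3.41 Mb from *Pbrm1* on chromosome 14, and *Vcl* 9.99 Mb from it. Whether sequence near the targeted locus differs between the genotypes was not tested. *Fhl1* and *Pdlim7* had log2 fold changes of 0.09 and -0.08 and did not pass the test.

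Neither transcription regulator of the group rose. *Srf* (chr17:46546839-46556162), whose product binds CArG boxes and whose own promoter holds the pair printed above, was at 237, 214 and 219 CPM in WT and at 184, 192 and 194 CPM in cKO. Every cKO library was below every WT library, with a log2 fold change of -0.23 ± 0.05 (edgeR adjusted p = 0.00172). *Myocd*, which encodes myocardin, was at 5.26, 3.90 and 4.63 CPM in WT and at 4.67, 2.65 and 3.47 CPM in cKO, a level at which 3 counts correspond to 0.159 to 0.193 CPM. Its groups overlapped and the change of -0.35 ± 0.20 did not pass the test (edgeR adjusted p = 0.172), although without cKO replicate 1 it was -0.59 with an adjusted p of 0.037. Of the 9 other regulators listed, *Mrtfa*, a myocardin-related coactivator of SRF, fell by 0.26 (adjusted p = 0.00871), and *Klf4* and *Mef2c* rose by 0.23 and 0.34. *Mrtfb*, *Mef2a*, *Mef2d*, *Tead1*, *Gata6* and *Elk1* were not called.

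Other genes of the same roles were taken from a list of 58, of which 17 rose and 16 fell with a median log2 fold change of 0.01. Over all tested genes, 21.9% were called higher and 21.8% lower. The largest rises were those of *Lims2* (PINCH2, an adhesion adaptor, 1.11 ± 0.10), *Pdlim2* (1.01 ± 0.10), *Prkg1* (the cGMP-dependent kinase that relaxes smooth muscle, 0.67 ± 0.11) and *Svil* (supervillin, 0.58 ± 0.06). The largest falls were those of *Myl12b* (-0.77 ± 0.08), *Myh14* (-0.72 ± 0.10), *Pdlim1* (-0.69 ± 0.05) and *Nes* (nestin, -0.61 ± 0.09). All 8 had no overlap between the groups and passed the test with adjusted p of at most 0.000274 in edgeR. Within 1 family the PDZ and LIM genes thus differed in direction, with *Pdlim2*, *Pdlim3* and *Pdlim4* higher, *Pdlim1* and *Pdlim5* lower, and *Pdlim7* not called.

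Among the cKO libraries, replicate 2 had the lowest value for 27 of the 40 members and the highest for 6, with a median deviation of -0.07 (log2) from the group mean. Replicate 1 was the highest for 20 members. Without cKO replicate 2, 19 members rose and 6 fell, and without cKO replicate 1, 14 rose and 6 fell. The calls over all tested genes moved the same way. They were 7054 of 15671 without cKO replicate 2 and 5547 of 15626 without cKO replicate 1, against 6723 of 15376 with all libraries.

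Markers of other cells moved with genotype beside these results, where 21.9% of all tested genes were called higher and 21.8% lower. Of the tested markers, 8 of 9 leukocyte, 8 of 12 fibroblast and 7 of 10 epithelial markers were higher in cKO, and 2 fibroblast markers were lower (*Dpt* -0.65 and *Thy1* -0.31), while all 10 proliferation genes were lower, their sum falling from 1035 to 1089 CPM to 686 to 694 CPM. These counts for leukocyte and fibroblast markers and for proliferation genes were the same under all 14 alternatives, a check added after the data had been seen. Endothelial markers summed to 347 to 367 CPM in WT and 283 to 290 CPM in cKO, with *Kdr* lower (-0.87), *Vwf* higher (1.71), the other 6 not called and a median log2 fold change of -0.03. The 7 mesothelial markers summed to 331 to 340 and 352 to 384 CPM, but only *Krt19* (0.79), which is also in the epithelial list, was called higher, and 4 were lower (*Muc16* -1.31, *Upk1b* -0.86, *Msln* -0.82 and *Lrrn4* -0.37). Pericyte markers, which mark another contractile cell, overlapped in sum, at 129 to 149 CPM in WT and 127 to 139 CPM in cKO, but 5 of the 6 tested were higher (*Kcnj8* 1.47 and *Abcc9* 1.38 most) and *Cspg4* was lower (-0.70). Their part in the changes of the contractile genes was not tested.

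Striated muscle genes served as a separate check, since several members are shared with striated muscle. Their 19 markers summed to only 21.3 to 25.1 CPM in WT and 12.0 to 14.7 CPM in cKO. Of the 7 that were tested, 3 were lower and 3 were not called, while *Ttn* was higher (log2 fold change 0.61). *Tnnt2* was among the lower ones (-1.14). The fast myosin genes *Myh1*, *Myh2* and *Myh4* had no count in any of the 6 libraries, which allows up to 0.159 to 0.193 CPM per library, counting error only. *Actc1* and *Acta1*, the cardiac and skeletal alpha-actins, were lower, with log2 fold changes of -3.53 and -2.45 (edgeR adjusted p = 7.72e-07 and 1.87e-05) and were named after their values had been seen. They went from 3.53 to 4.74 and 5.33 to 8.63 CPM in WT to 0.129 to 0.450 and 0.450 to 1.91 CPM in cKO. These actin genes thus changed opposite to *Acta2* in the same libraries, at levels far below it.

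**Figure D5:**
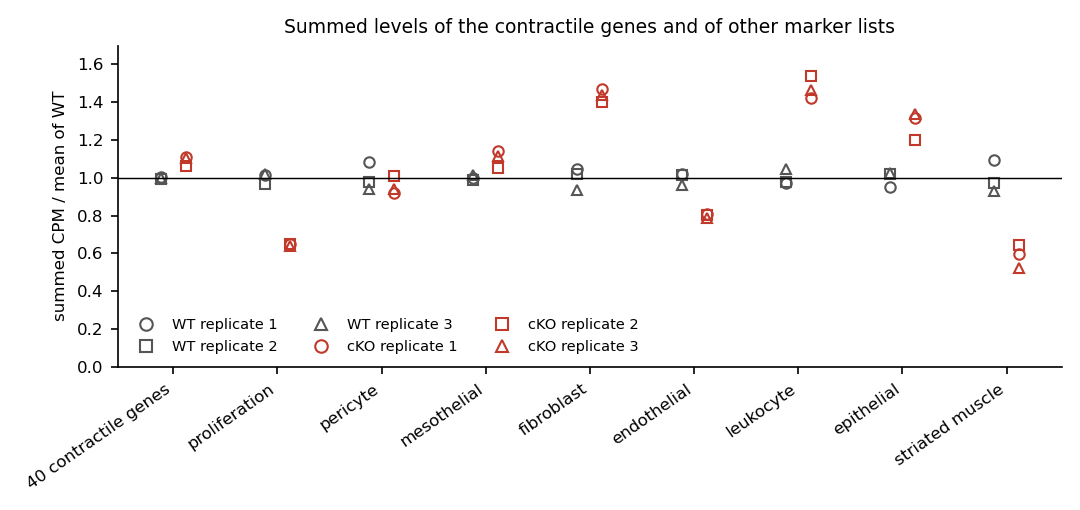
Summed CPM of the 40 contractile genes and of 8 marker lists (x axis), divided by the mean of the 3 WT libraries (y axis, linear), with WT in gray, cKO in red and the marker shape giving the replicate number. The contractile sum is at 1.06 to 1.11 times the WT mean in cKO, the fibroblast and leukocyte sums at 1.40 to 1.54 times, and the proliferation sum at 0.641 to 0.649 times.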

How the data were processed

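RNA-seq was performed on D2 primary oviductal smooth muscle cells, with 3 WT and 3 Pbrm1 cKO libraries. The authors deposited whole-number read counts per gene, and per the file headers these counts came from featureCounts 1.6.4 in reverse-stranded mode over the exons of GENCODE M18, after cutadapt and HISAT2 on GRCm38.p5 (submitters' processing notes). Counting used strand and left out reads that map to several places, so that genes with near-identical copies lose reads. Of the 54232 genes, 99.7% received a symbol from GENCODE M21, which has the same build.

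Groups followed the genotype labels. Counts were tested with edgeR 4.0.16 in R 4.3.3 (TMM scaling, filterByExpr, quasi-likelihood F-test, two-sided) with Benjamini-Hochberg adjustment over 15376 genes and a threshold of 0.05, after the code had been tested on simulated data. CPM were scaled with TMM, and levels between genes were divided by the deposited exon length. A count of 3 was taken as the floor (0.159 to 0.193 CPM). Such limits cover counting error only, since reads carried no molecular identifiers. All pairs of libraries within a group differed by more than sampling noise (chi-square per gene of 1.24 to 1.55). Ratios within libraries were compared with exact permutation tests. Promoter sequences came from RefSeq (GRCm38.p6), and copies were searched with BLAST+ 2.17.0 among GENCODE M21 transcripts (at least 95% identity over 90% of the copy).

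Alternatives were DESeq2 1.42.0, other scalings and filters, a replicate block, protein-coding genes only, stricter thresholds and leaving out each library. The members and gene lists were chosen with earlier results of these data known. Changes are given for 38 of the 40 members, and the other 2 are counted but not reported here. Values for each library are given for the largest called change in each direction and the most abundant gene of each role, for *Acta2*, *Myh11*, *Cnn1*, *Myocd* and *Srf*, and in ranges for others. The library values of *Actn1* and the promoter sites of *Acta2* were added after their values had been seen.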

Additional observations from a re-analysis of the deposited data

How the results depend on the processing

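Of the 23 called members, 18 kept their call and direction under all 14 alternatives for the test, scaling, filter, gene set, replicate block and left-out libraries, and no called member changed direction. The other 5 (*Hspb6*, *Ldb3*, *Actn1*, *Ppp1r12a* and *Tpm1*) lost the call at least once, as given beside them. In all, 28 of 560 values for single members changed their call or sign, and 20 of these came from leaving out 1 library. Signs changed for 4 members that were not called, whose log2 fold changes without 1 library ranged from -0.0098 to 0.12 for *Myl6*, from -0.066 to 0.040 for *Cnn1*, from -0.0082 to 0.042 for *Cald1* and from -0.15 to 0.12 for *Palld* (0.06 without cKO replicate 3). Requiring in addition an absolute log2 fold change above 0.5 left 2585 genes, 9 members higher and 0 lower, and 4 of the other contractile genes higher and 6 lower. At an adjusted p under 0.01, 4665 of the 15376 tested genes were called. Of the members, 14 were then higher and 3 lower, and of the other contractile genes 10 were higher and 12 lower. DESeq2 called 5535 genes, of which 5528 were also called by edgeR. The deviations of same-numbered libraries correlated at -0.0364, 0.0532 and 0.127, which with 3 libraries per group cannot settle whether the numbers pair them. With the replicate block 6908 genes were called, against 6723 without it, and 6617 were in common. Across scalings and filters the median over all tested genes (log2 fold change) lay between -0.0103 and 0.0174. Depth limits what can be said of *Ldb3*, *Ppp1r14a*, *Hspb6*, *Myocd* and *Pdlim3*, which were at a few CPM.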
